A study of Mus musculus with 8 samples.

Results

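The 39 genes described here are lysosomal: proteases, glycosidases, lipid hydrolases and carriers, membrane proteins, subunits of the proton pump, progranulin and a pair of transcription factors of the MiT/TFE family. They were chosen by name, as symbols to which the accession of at least 1 array probe maps, from 18749 symbols with a probe in all. The rule itself uses no measured value, but the genes were chosen with earlier results of these data known. Their RNA was compared in No. 4 mammary glands of C57/Bl6 female mice at lactation day 1, between 4 wild-type (WT) dams and 4 Th-POK knockout (KO) dams. Th-POK is the zinc finger transcription factor encoded by Zbtb7b, known for steering immature T cells to the CD4+ helper lineage, and the sources used here name no Cre or gland-specific deletion. The methods describe the mice as matched for age, and the age was not given in the sources used here. Each gland gave 1 Cy3-labelled sample for 1 one-colour Agilent array, and each value is a log2 signal after quantile normalization between the 8 arrays. Differences are KO minus WT on that scale, with their standard errors (SE) from limma, and a gene was called when its p adjusted by Benjamini-Hochberg over all 14137 genes tested was under 0.05.

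Lysosomes are acidic organelles in which hydrolases take apart proteins, sugars and lipids that arrive from endocytosis or autophagy. Most of the soluble enzymes are tagged with mannose 6-phosphate in the Golgi apparatus and carried to the organelle by receptors, while the V-ATPase pumps in the protons that keep the lumen acidic. TFEB and TFE3 bind a short palindromic motif in the promoters of many of these genes, and mTORC1, which sits on the lysosomal surface when amino acids are plentiful, keeps them in the cytoplasm. In the mammary gland, cathepsins B and L and the leakiness of lysosomes are known from the death of epithelial cells at involution, when milk production has ended.

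The motif is shown here because it is the sequence through which TFEB and TFE3 are known to act on this gene set. It was searched as TCACGTGA, and within it as the shorter CACGTG, in RefSeq promoter sequences of build GRCm38.p6 that run from 250 bases before to 50 bases after each annotated start. Both motifs are palindromes, so a match lies on both strands, and every match of the longer motif is also a match of the shorter. Promoters of 35 of the 39 genes were found. The longer motif was in 6 of them (17.1%), against 1.96% of 11228 tested genes with a promoter and 0.974% of 32851 promoters. The shorter motif was in 14 (40.0%), against 11.2% and 7.15%. The 6 genes with the longer motif are shown with 1 site each, followed by Ctsl and Lamp1 with the shorter motif alone, picked by hand because both are described array by array. Each line gives 30 bases on the strand of the gene, 5′ to 3′, with the motif in capitals.
Ctsa, chr2:164833749-164833778, plus strand: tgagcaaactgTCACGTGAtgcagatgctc
Ctsd, chr7:142387908-142387937, minus strand: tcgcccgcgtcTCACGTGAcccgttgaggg
Gla, chrX:134601215-134601244, minus strand: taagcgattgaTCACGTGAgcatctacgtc
Mcoln1, chr8:3500462-3500491, plus strand: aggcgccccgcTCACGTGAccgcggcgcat
Atp6v0d1, chr8:105566050-105566079, minus strand: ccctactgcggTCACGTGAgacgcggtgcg
Atp6v1a, chr16:44139373-44139402, minus strand: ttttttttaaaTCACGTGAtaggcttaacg
Ctsl, chr13:64370739-64370768, minus strand: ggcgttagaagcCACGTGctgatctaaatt
Lamp1, chr8:13159088-13159117, plus strand: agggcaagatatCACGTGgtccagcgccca
Ctsa and Gla each held a further copy of the longer motif, and Lamp1 held further copies of the shorter. A match is a description of letters and does not show that a factor was bound.

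Every one of the 56 probes for the 39 genes was well above background on all 8 arrays, and all 39 genes were tested. The share of all probes above background ran from 66.9% to 75.3% in WT and from 66.8% to 71.0% in KO. Zbtb7b, the targeted gene, had signals between 9.90 and 10.42 on the WT arrays and was not well above background on any KO array, which makes it at least 81.5-fold lower. The WT arrays lay on 1 slide and the KO arrays on another, scanned apart, so slide, scan and genotype cannot be told apart. The series describes the samples of a genotype as separate dams. In a whole gland, fewer cells of a type and less RNA per cell cannot be told apart.

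Of the 39 lysosomal genes, 1 was called between genotypes: Cd63 rose in the KO glands, and no gene fell. Across all genes tested, 7.53% were called higher in KO and 8.96% lower by the same rule. At an unadjusted p under 0.05, limma gave 3 genes higher (Cd63, Ctsk and Ctsl) and 2 lower (Atp6v0d1 and Tfe3), against 16.7% and 19.6% of all genes. The methods' t-test called none of the 39 after adjustment and gave 2 higher and 2 lower at an unadjusted p under 0.05. Differences were higher in KO for 19 genes and lower for 20, with a median of -0.01, beside a median of -0.02 over all genes. The size of the difference was under 0.3 for 30 of the 39 genes, and small differences were common over all genes too. The median size was 0.25 for the 39 and 0.27 over all genes. The quartiles of the difference were -0.25 and 0.23 for the 39 and -0.30 and 0.25 over all genes. The 95% interval of the difference lay within 1 log2 unit on either side of 0 for 34 genes, so that a 2-fold change lies outside the interval of each, and the intervals of 34 genes included 0. KO and WT arrays did not overlap for 3 of the 39 genes (Ctsk, Atp6v0d1 and Tfe3), against 24.1% of all genes. The values on single arrays are given for the 10 genes with the smallest p and for Tfeb, Tfe3, Ctsb, Ctsd, Ctsl, Lamp1 and Lamp2, and for Grn, which was added after its values were seen.

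**Figure D1:**
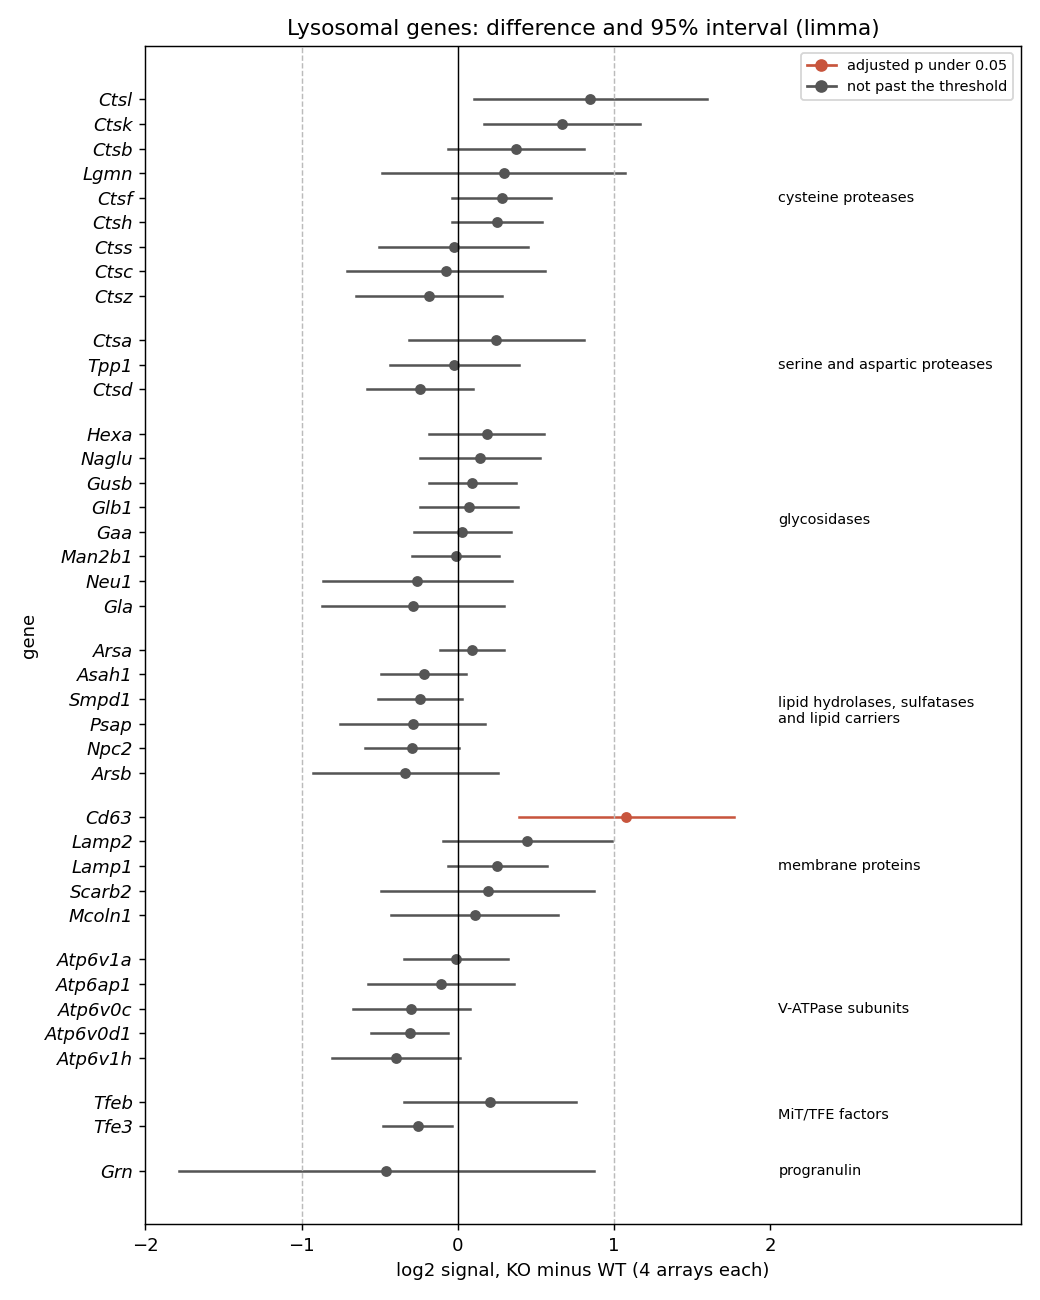
Difference in log2 signal, KO minus WT, for the 39 lysosomal genes in 8 subgroups (points; bars are 95% intervals from limma with 4 arrays per genotype; dashed lines mark a 2-fold change). Cd63, in red, has an adjusted p of 0.0436; the intervals of 34 genes include 0.

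**Figure D2:**
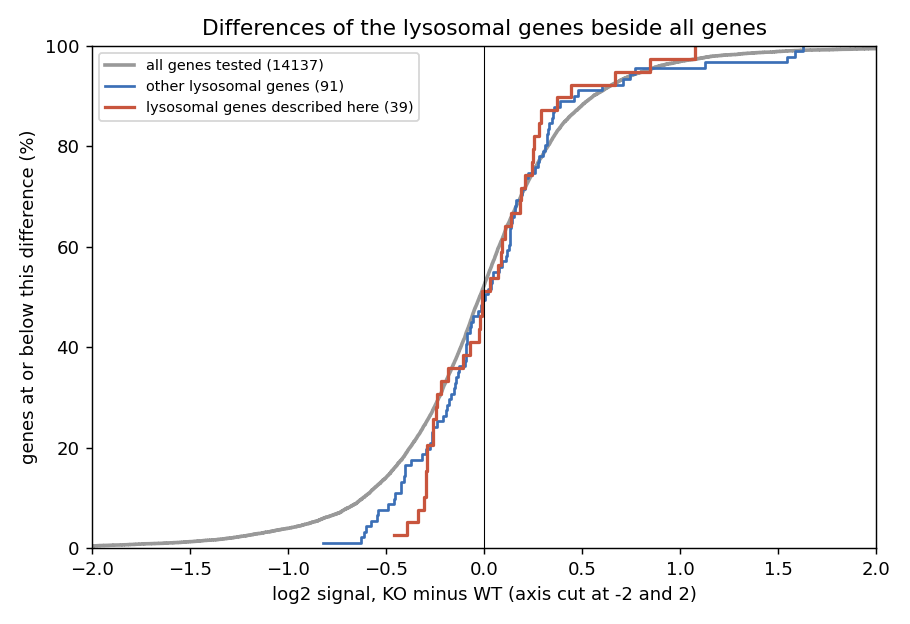
Percent of genes at or below each log2 difference, KO minus WT, for the 39 lysosomal genes, 91 other lysosomal genes and all 14137 genes tested. The medians are -0.01, 0.00 and -0.02, and the curves of the lysosomal genes lie inside that of all genes among the larger decreases.

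The membrane proteins gave the gene with the largest difference of the 39. Cd63, a tetraspanin of lysosomes, late endosomes and exosomes, had log2 signals of 14.14, 12.88, 13.67 and 13.09 in WT1 to WT4 and 14.87, 14.25, 14.85 and 14.12 in KO1 to KO4. All KO arrays but KO4 were above every WT array, and KO4 lay just below WT1, so the genotypes overlapped. The difference was 1.08 ± 0.30 (SE, n = 4 per genotype), a 2.11-fold higher signal, with an adjusted p of 0.0436 in limma. Each KO array was above the WT array of the same number. The call was lost without WT2, WT3, WT4, KO1, KO2 or KO3, where the adjusted p lay between 0.0712 and 0.112. It was also lost when dim probes were kept in the adjustment (0.0672) and in the methods' t-test (0.0941).

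The other 4 membrane proteins were also higher on average in KO but were not called, and the median of the 5 was 0.25. By contrast, 18 other lysosomal membrane proteins had 8 higher and 10 lower, with a median of -0.11. Lamp2, a heavily glycosylated protein of the lysosomal membrane with a part in chaperone-mediated autophagy, had signals of 13.87, 13.05, 13.60 and 13.19 in WT1 to WT4 and 14.24, 13.77, 14.09 and 13.39 in KO1 to KO4. KO1 and KO3 were above all WT arrays, KO2 was below WT1 alone, and KO4 lay inside the WT range. The difference was 0.44 ± 0.24 (adjusted p = 0.209). Its partner Lamp1 had signals of 14.33, 14.16, 14.45 and 14.18 in WT1 to WT4 and 14.85, 14.36, 14.55 and 14.35 in KO1 to KO4. The WT3 array was above KO2 and KO4, and the difference of 0.25 ± 0.14 had an adjusted p of 0.22. Scarb2, also known as LIMP-2, a membrane glycoprotein and sorting receptor of the lysosome, differed by 0.19 ± 0.30. Mcoln1, a calcium channel of the lysosome, differed by 0.11 ± 0.23, and its sign turned without WT2 or KO1.

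Of the 9 cysteine proteases, 6 were higher in KO and none was called by limma, with a median difference of 0.28. Ctsl, which encodes cathepsin L, had signals of 15.87, 15.13, 16.23 and 15.14 in WT1 to WT4 and 16.71, 16.36, 16.94 and 15.74 in KO1 to KO4. The KO1, KO2 and KO3 arrays were above every WT array, while KO4 was below WT1 and WT3. The difference was 0.85 ± 0.33, 1.8-fold, with an adjusted p of 0.102. With the replicate number as a block, which compares KO and WT arrays of the same number, its SE was 0.135 and its adjusted p was 0.0188 (higher in 4 of 4 pairs), and the count of lysosomal genes called higher went from 1 to 2, while 8.75% of all genes were called higher and 10.8% lower. The methods name no pairing, and the numbers were read as pairs from these same data. Without KO4 the adjusted p of Ctsl was 0.0487.

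Ctsk, which encodes the collagen-degrading cathepsin K, had signals of 9.33, 9.27, 9.0005 and 9.17 in WT1 to WT4 and 9.78, 10.48, 9.83 and 9.35 in KO1 to KO4. All KO arrays were above all WT arrays, KO4 by the least. The difference was 0.67 ± 0.22 (adjusted p = 0.0663), and without KO4 it was 0.84 with an adjusted p of 0.0304. Ctsb, which encodes cathepsin B, had signals of 16.00, 15.71, 16.01 and 15.76 in WT1 to WT4 and 16.63, 16.06, 16.48 and 15.80 in KO1 to KO4. KO1, KO2 and KO3 exceeded every WT array and KO4 lay within the WT range. Its difference of 0.37 ± 0.19 had an adjusted p of 0.192, and its dimmer second probe differed by 0.58. Ctsh, an aminopeptidase among the cathepsins, had signals of 15.56, 15.33, 15.53 and 15.21 in WT1 to WT4 and 15.89, 15.63, 15.60 and 15.52 in KO1 to KO4. The KO4 array was below WT1 and WT3, and the difference was 0.25 ± 0.13 (adjusted p = 0.184). Ctsf, a cathepsin of the papain family, had signals of 9.62, 9.26, 9.60 and 9.54 in WT1 to WT4 and 9.94, 9.94, 9.79 and 9.47 in KO1 to KO4. Here too KO4 was the array within the WT range, and the difference was 0.28 ± 0.14 (adjusted p = 0.184).

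The remaining cysteine proteases did not share a direction. Lgmn, which encodes legumain and cuts after asparagine, differed by 0.29 ± 0.34. Ctss and Ctsc, which are prominent in leukocytes, differed by -0.03 ± 0.21 and -0.07 ± 0.28, and Ctsz by -0.19 ± 0.20. Beside them, none of 11 macrophage markers was called by limma, 7 were higher and 4 lower, with a median of 0.12 and a mean signal of 9.67 to 10.18 in WT and 9.62 to 10.50 in KO. The list ran from Lyz2 at -0.19 to Cd14 at 1.39 ± 0.73 (adjusted p = 0.203), with Csf1r and Adgre1, which define macrophages, at 0.03 and -0.15. With the replicate block Cd14 was called (adjusted p = 0.0191).

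Ctsd, which encodes the aspartic protease cathepsin D, lay on the other side of 0, with signals of 15.64, 15.94, 15.84 and 16.16 in WT1 to WT4 and 15.94, 15.46, 15.54 and 15.67 in KO1 to KO4. KO1 equalled WT2 within rounding, KO2 and KO3 were below every WT array, and KO4 lay just above WT1. The difference was -0.24 ± 0.15 (adjusted p = 0.269). Ctsa, a serine carboxypeptidase that protects beta-galactosidase and neuraminidase, differed by 0.25 ± 0.25, and Tpp1, a tripeptidyl peptidase, by -0.02 ± 0.18.

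The 8 glycosidases, which cut sugars from glycogen, glycolipids and glycosaminoglycans, had a median difference of 0.05, and none was called. The highest was Hexa, a subunit of beta-hexosaminidase, at 0.18 ± 0.16, and the lowest was Gla, alpha-galactosidase A, at -0.29 ± 0.26. Naglu, Gusb, Glb1 and Gaa were between 0.03 and 0.14, Man2b1 was at -0.01 and Neu1 at -0.26 ± 0.27. For Gaa, the enzyme that breaks down glycogen, the interval ran from -0.28 to 0.34.

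Of the 6 lipid hydrolases, sulfatases and lipid carriers, 5 were lower in KO, with a median of -0.27, and none was called. Npc2, which hands cholesterol to the membrane protein Npc1, had signals of 13.44, 13.63, 13.60 and 13.93 in WT1 to WT4 and 13.44, 13.46, 13.14 and 13.38 in KO1 to KO4. The WT1 array was as low as KO1 and KO2, and the other WT arrays were above all KO arrays. Its difference was -0.30 ± 0.13 (adjusted p = 0.143). Smpd1, the acid sphingomyelinase, had signals of 12.94, 13.12, 13.17 and 13.16 in WT1 to WT4 and 12.85, 12.86, 12.64 and 13.07 in KO1 to KO4. The KO4 array was above WT1, and the difference was -0.24 ± 0.12 (adjusted p = 0.171). Psap, the precursor of the saposins, Asah1, the acid ceramidase, and Arsb, a sulfatase of dermatan sulfate, were at -0.29, -0.22 and -0.34, while the sulfatase Arsa was at 0.09 ± 0.09.

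All 5 V-ATPase genes were lower in KO, with a median difference of -0.30, and none was called, whereas 16 other subunits had a median of 0.01. Atp6v0d1, a subunit of the stalk of the membrane sector, had signals of 12.70, 12.47, 12.71 and 12.54 in WT1 to WT4 and 12.43, 12.14, 12.36 and 12.25 in KO1 to KO4. Every KO array was below every WT array. The difference was -0.31 ± 0.11 (adjusted p = 0.0803), and with 75th percentile scaling it was -0.38 with an adjusted p of 0.0433. Atp6v1h, a regulatory subunit of the cytoplasmic sector, had signals of 11.08, 11.59, 11.44 and 11.53 in WT1 to WT4 and 10.93, 10.82, 10.83 and 11.47 in KO1 to KO4. KO4 lay within the WT range, while the other KO arrays were below every WT array. The difference of -0.40 ± 0.18 had an adjusted p of 0.148, and without KO4 it was -0.55 with an adjusted p of 0.0422. Atp6v0c, which encodes the proton-carrying ring, differed by -0.30 ± 0.17. Atp6ap1, an accessory protein, and Atp6v1a, the ATP-splitting subunit, differed by -0.11 ± 0.20 and -0.01 ± 0.15.

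Neither MiT/TFE factor was called. Tfeb had signals of 6.26, 6.48, 6.30 and 6.26 in WT1 to WT4 and 6.26, 6.18, 6.37 and 7.33 in KO1 to KO4. The KO4 array stood above the other 7, which lay between 6.18 and 6.48. The difference was 0.21 ± 0.24 (adjusted p = 0.568) and was -0.06 without KO4. Tfe3 had signals of 8.87, 8.64, 8.90 and 8.73 in WT1 to WT4 and 8.50, 8.49, 8.59 and 8.53 in KO1 to KO4. Every KO array was below every WT array, and the difference was -0.26 ± 0.10 (adjusted p = 0.0922). The 3 probes of Tfe3 differed by -0.26, -0.30 and -0.64, and their mean gave -0.40 with an adjusted p of 0.0337. The array measures RNA, so it does not report where these proteins lay in the cell. Among genes with a promoter sequence, the 6 with the longer motif shown above had a median difference of -0.13, with 2 higher and 4 lower, against 0.03 for those without it. The 14 with the shorter motif had a median of 0.10, with 10 higher and 4 lower, against -0.07.

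**Figure D3:**
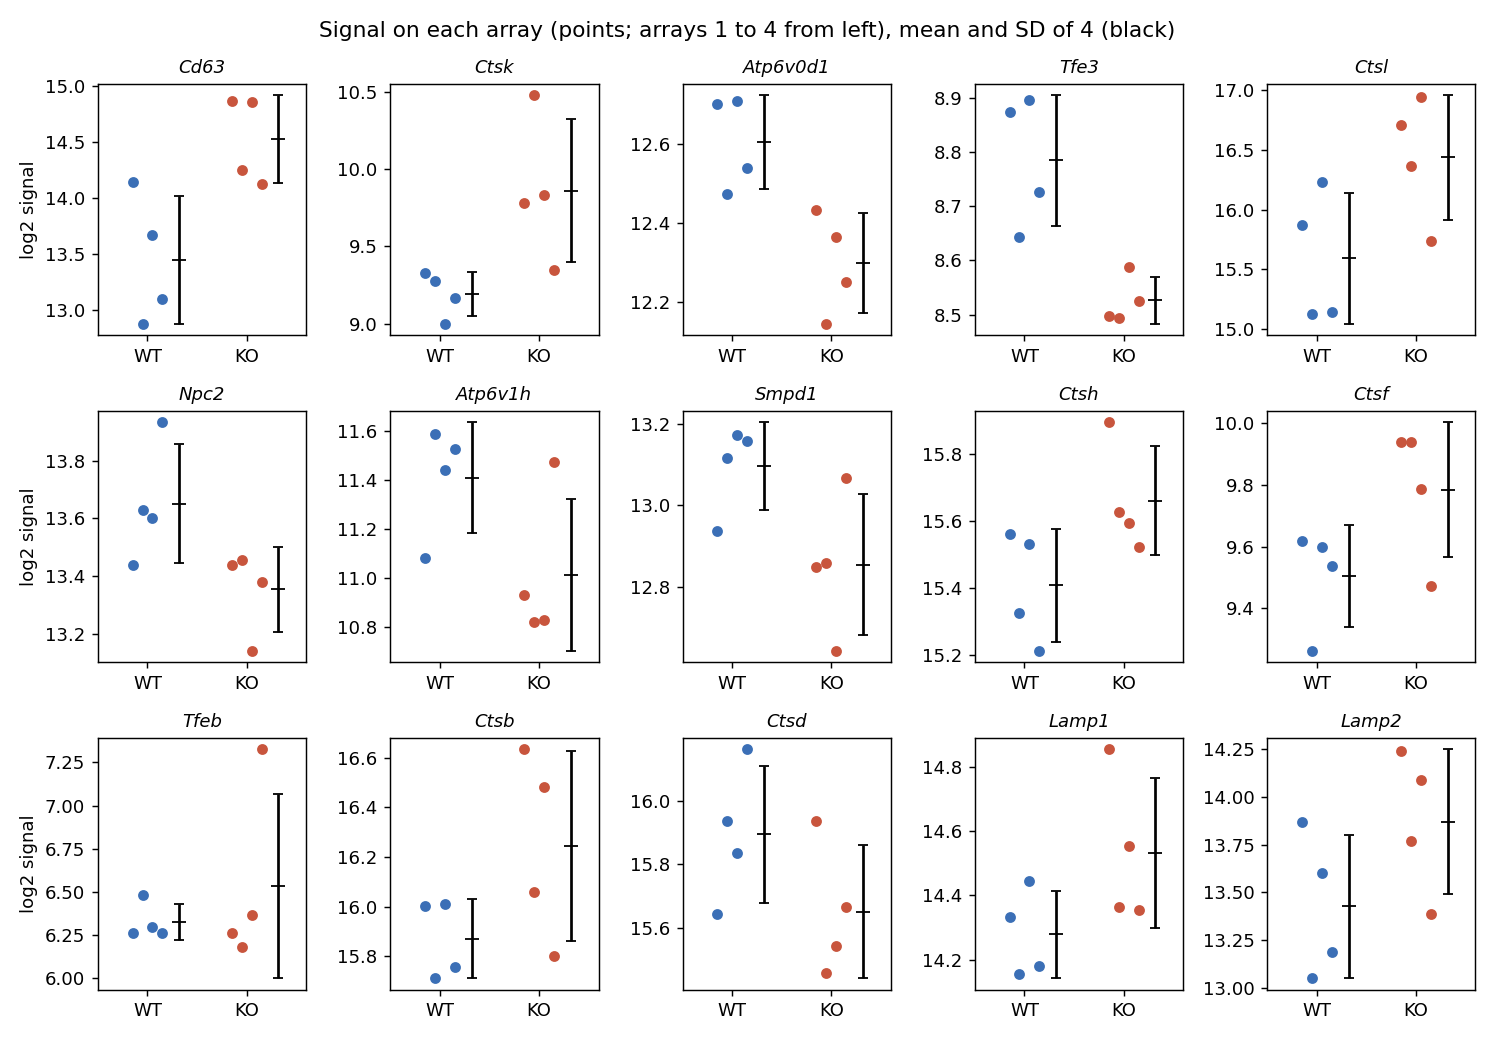
Log2 signal on each array for the 15 lysosomal genes described array by array, WT in blue and KO in red, with arrays 1 to 4 from left to right and the mean and SD of 4 arrays in black; each panel has its own axis, which does not start at 0. Ctsk, Atp6v0d1 and Tfe3 are the panels without overlap between genotypes.

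Grn, the gene of progranulin, a secreted protein that is cut into granulins in the lysosome, had the lowest difference of the 39, and KO4 decided its sign. Its brighter probe had signals of 15.99, 16.79, 16.67 and 16.51 in WT1 to WT4 and 17.00, 16.16, 16.85 and 14.11 in KO1 to KO4. KO4 was far below the other 7 arrays, and the difference was -0.46 ± 0.58 (adjusted p = 0.601), or 0.18 without KO4. Its second probe had 13.33, 12.88, 13.52 and 12.84 on the WT arrays and 13.80, 13.15, 13.38 and 12.74 on the KO arrays, a difference of 0.12. KO4 was the lowest array for that probe too, but close to WT2 and WT4. Of the 15 lysosomal genes with more than 1 probe, the probes of 14 had 1 direction, and Grn was the exception.

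**Figure D4:**
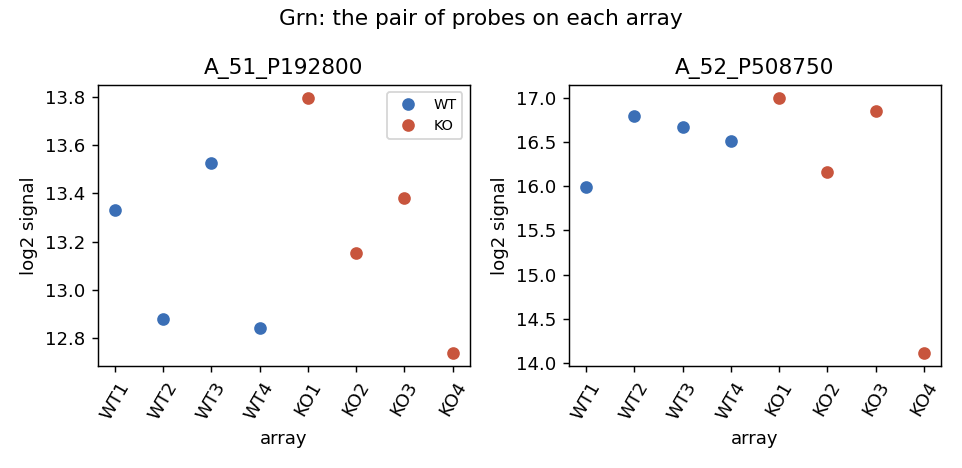
Log2 signal of the 2 Grn probes on each array, WT in blue and KO in red; the axes differ and do not start at 0. The brighter probe (right) is at 14.11 on KO4 and between 15.99 and 17.00 on the other arrays, while the other probe (left) is at 12.74 on KO4 and between 12.84 and 13.80 elsewhere.

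For the 39 genes the median range over the 4 arrays of a genotype was 0.49 in WT and 0.64 in KO. The median size of the difference was 0.25, beside 0.27 over all genes. A range of single arrays and a difference of means are unlike measures, so the larger ranges were not read as a trait of these genes. The difference exceeded the wider of both ranges for 2 genes, Atp6v0d1 and Tfe3. Neither the ranges nor this count were taken over all genes. KO1 was the highest KO array for 27 of the 39 genes (69.2%, against 24.8% of all genes) and the lowest for none. KO4 was the lowest KO array for 22 (56.4%, against 30.3% of all genes). Without KO4, 3 lysosomal genes were called higher (Cd63, Ctsk and Ctsl) and 1 lower (Atp6v1h), beside 7.19% and 8.96% of all genes in the same fit.

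The lysosomal genes that varied most like Ctsl, by the correlation over the 8 arrays of deviations from the genotype means, were Scarb2 (r = 0.93), Tpp1 (0.91), Lamp2 (0.88), Lgmn (0.88), Ctsa (0.87), Ctsb (0.85), Cd63 (0.84) and Gla (0.83). These 8 are 21.1% of the 38 other lysosomal genes, and 7.05% of 14135 genes reached the same r of 0.8. The correlation is a description of 8 arrays that share their normalization, and Ctsl and the level of 0.8 were chosen after the values were seen. Ctsc (r = -0.87) and Atp6ap1 (r = -0.86) varied in the opposite sense.

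**Figure D5:**
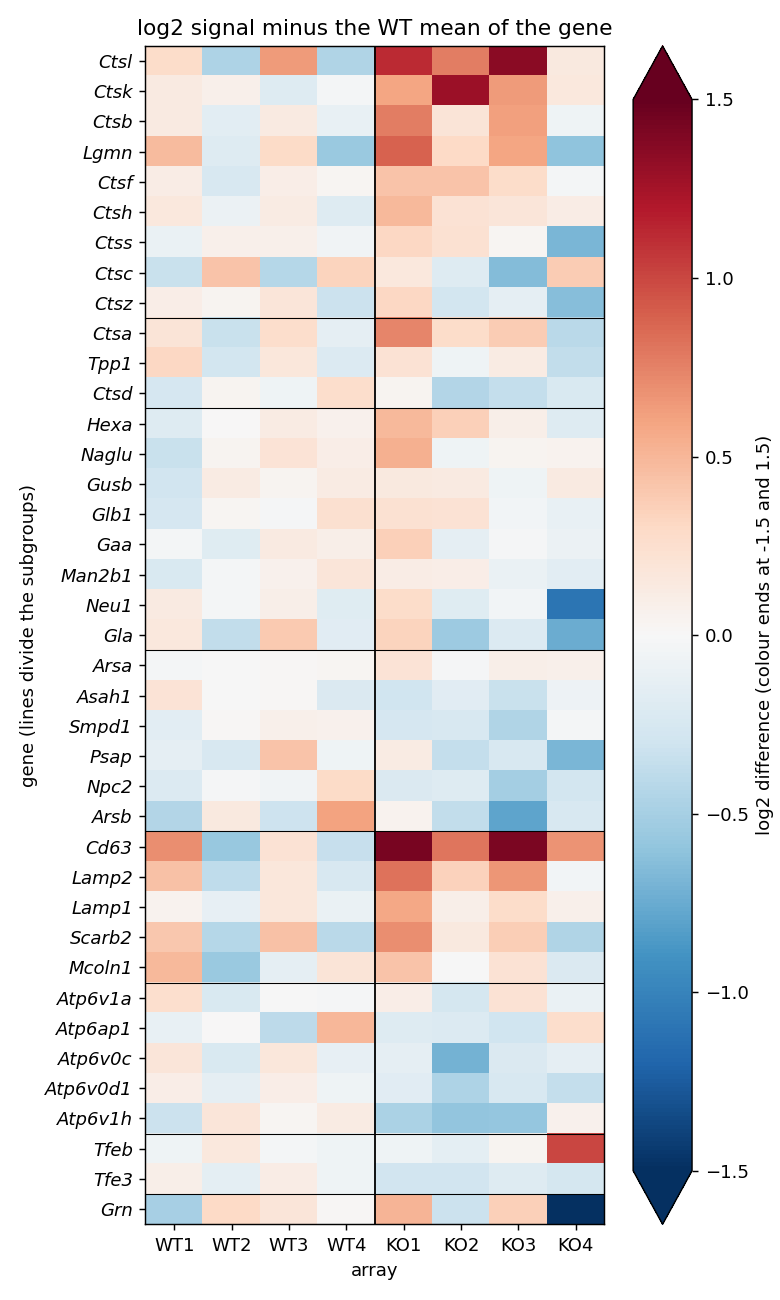
Log2 signal of each lysosomal gene on each array minus the mean of its 4 WT arrays (red above, blue below; colours end at 1.5 on either side; black lines divide the subgroups). KO1 is the highest KO array for 27 genes and KO4 the lowest for 22.

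Beyond the 39, 91 other lysosomal genes were tested, and 7 rose and 10 fell, with a median of 0.00, beside 7.53% and 8.96% of all genes. The counts were 1 higher and 4 lower without WT2 or without KO3, 2 and 4 without KO2, 2 and 6 without KO1, 3 and 5 without WT4, and 4 and 5 without WT3, and the methods' t-test called 3 higher. The shares of all genes fell in these fits too, to between 1.88% (without KO3) and 5.69% (without WT4) higher and between 1.76% and 7.19% lower, and to 4.19% higher in the methods' t-test. Of the 17 called genes, 5 kept their call under all 18 alternatives, Atp6v0e2, Csta1, Mfsd8 and Slc11a2 among them. Of 28 other hydrolases and activators, Ctsw, a cathepsin of cytotoxic lymphocytes, rose by 1.13 ± 0.30. Among those that fell were Dpp7 (-0.58) and Ppt2 (-0.42). T cell markers were lower in KO in 6 of 6 cases, with Cd3e and Cd4 called.

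Of 18 other membrane proteins, Npc1, which exports cholesterol from the lysosome, rose by 0.71 ± 0.17 (adjusted p = 0.0277), and Cln3 by 0.60. The iron carrier Slc11a2 (-0.82 ± 0.13) and Mfsd8 (-0.60) fell. The 16 other V-ATPase subunits had 8 higher and 8 lower. Among them Atp6v1b1 rose by 1.63 ± 0.32 (adjusted p = 0.0189), while Atp6v0e2 (-0.61) and Atp6v1c1 (-0.38) fell. Of 10 genes of mannose 6-phosphate sorting, the clathrin adaptor subunit Ap1m1 fell (-0.54), and Nagpa and Igf2r, a mannose 6-phosphate receptor, were at -0.43 and 0.19. Of 12 genes that hold TFEB in check at the lysosome or belong to its family, Fnip2, a partner of folliculin, rose by 0.48 and the small GTPase gene Rraga fell (-0.41), with Lamtor1 at -0.27.

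Of 7 cathepsin inhibitors, Csta1 and Stfa1, stefins that block cysteine proteases, rose by 1.54 ± 0.28 and 1.58 ± 0.40, and Cst3 was at 0.31. Stefin A genes form a cluster of near-identical copies, so which of them a probe read is uncertain, and Stfa1 was well above background on 2 of the 4 WT arrays. Neutrophils express stefins, and of 10 neutrophil markers listed 7 were tested, with Elane and Cxcr2 too dim to enter. All 7 tested were higher in KO, and Camp and Ngp were called. Camp and Ngp were not well above background on any WT array, which makes them at least 8.54-fold and 7.11-fold higher. They entered the test through the KO arrays alone, so the filter itself selected for a higher KO signal. The other neutrophil markers tested were well above background on all arrays, and none was called by limma. These ran from Csf3r at 0.08 (adjusted p = 0.861) to S100a9 at 2.19 (adjusted p = 0.0566). Among them, WT and KO arrays overlapped for Retnlg, S100a8, Mpo and Csf3r and did not overlap for S100a9. The part of these cells in the difference was not tested.

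Markers of other cells moved beside the called gene. Of 10 luminal epithelial markers, 8 were higher and 3 were called (Krt18, Epcam and Cldn3). Elf5 (-0.35) and Prlr (-0.20) were lower, and Csn2 was at 0.01. The mean signal of the list was between 13.97 and 14.27 in WT and between 14.38 and 14.52 in KO. Fibroblast markers, beside Ctsk, were higher in 7 of 7 cases with Dcn called, at 13.27 to 13.47 in WT and 13.48 to 14.05 in KO. Adipocyte markers were higher in 7 of 9 cases with Plin1 and Cfd called, while Lep (-0.73) and Pparg (-0.05) were lower. Basal epithelial (3 of 8 higher) and endothelial markers (3 of 7 higher) had no calls. Of 6 B and plasma cell markers, 3 were higher and 3 lower, with Cd79b called higher at 1.05 and Cd79a, not called, at -0.72. Of the 11 called markers of all cell types, Camp and Ngp, which the filter admitted through the KO arrays alone, kept their call under every alternative that tested them. The block ended the calls of Cd4, Cd79b and Epcam (adjusted p = 0.0596, 0.0744 and 0.0598). The part of these cells in the lysosomal differences was not tested.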

How the data were processed

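One-colour Agilent arrays measured 1 gland per dam, for 4 dams of each genotype. The authors deposited the scanner output of Agilent Feature Extraction 10.7, whose processed intensity was background-subtracted within each array only. A second deposited file, quantile-normalized log2 values that the authors made in GeneSpring, served as an alternative; each of its columns followed the scanner's log2 intensities with an r of 0.9985 or more.

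Here log2 processed intensities of non-control spots were quantile-normalized with limma 3.58.1 in R 4.3.3. Outlier spots were removed before the spots of a probe were averaged. Probes were named by accession through a GRCm38.p6 gene table (27479 of 41174 matched), from which no coordinates were taken apart from those of the promoter sites. A probe entered when well above background on all 4 arrays of a genotype, and the brightest probe stood for a gene. A probe whose spots were all marked as outliers on an array was left out, not imputed, and another probe could then stand for its gene. lmFit and eBayes gave p-values for 14137 genes, and the fit was tested on simulated data. No spot was saturated. Precision is limited by the number of arrays.

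Replicate numbers occur in both genotypes. Deviations from the genotype means correlated between same-numbered arrays at 0.219, 0.165, 0.304 and 0.283, all above 0.1. The average of -0.0788 between differently numbered arrays is no separate evidence, because the deviations sum to 0 within each genotype. Among WT arrays the KO array of the same number gave the highest correlation for numbers 3 and 4 and not for 1 and 2. The methods name no pairing, so the main fit had no block. The numbers were taken as pairs in an alternative fit only, a choice that rests on these same data. The blocked value is given where it changes a call. The genes, lists and subgroups were chosen with earlier results of these data known. Named genes are the 10 with the smallest p, 7 fixed genes, and in each further list any called gene and the 3 with the smallest p. Some called genes of those lists are not reported here.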

Additional observations from a re-analysis of the deposited data

Results flagged for a closer look

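In 78 groups of 4 arrays (39 genes in each genotype), 5 had 1 array whose gap to the nearest other took more of the whole range than Dixon's 95% critical value for 4 samples allows, and chance alone flags about 1 group in 20. Tfeb stood out in both genotypes: WT2 was at 6.48 while the other WT arrays lay between 6.26 and 6.30, and KO4 was at 7.33 while the other KO arrays lay between 6.18 and 6.37. For Atp6v1h, KO4 was at 11.47 above 10.82 to 10.93. For Atp6v0c, KO2 was at 11.91 below 12.39 to 12.48. For Gusb, which encodes beta-glucuronidase, KO3 was at 12.33 below 12.52 to 12.54.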

How the results depend on the processing

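Of 18 alternatives, some moved the counts. The number of the 39 lysosomal genes called higher was 0 with no filter on dim probes and in the methods' t-test, and 2 under the replicate block. In these fits 4.21%, 4.19% and 8.75% of all genes were called higher. The number of the 39 called lower was 1 with 75th percentile scaling (Atp6v0d1) and with the mean of a gene's probes (Tfe3), beside 10.2% and 8.97% of all genes. As each array was left out, 0 to 3 were called higher and 0 to 1 lower, other lysosomal genes called higher ran from 1 to 8 and lower from 4 to 12, and the median difference of the 39 ran from -0.053 to 0.076. Other lysosomal genes called higher were 3 in the methods' t-test. With arrays left out, the share of all genes called ran from 1.88% higher and 1.76% lower (without KO3) to 9.82% higher and 11.9% lower (without WT1). The block changed no other call among the 39 than that of Ctsl. Of the 39 genes, 26 kept their sign under all 18 alternatives; 13 changed it, none with an adjusted p under 0.05. Gaa was at -0.0019 with 75th percentile scaling. With arrays left out the differences ran from -0.079 to 0.084 for Gaa, -0.11 to 0.093 for Tpp1, -0.012 to 0.15 for Glb1, -0.0040 to 0.14 for Gusb, -0.088 to 0.074 for Atp6v1a, -0.23 to 0.12 for Ctsc, -0.078 to 0.27 for Mcoln1, -0.088 to 0.049 for Man2b1, -0.24 to 0.056 for Atp6ap1, -0.14 to 0.19 for Ctss, -0.44 to 0.018 for Neu1, -0.057 to 0.32 for Tfeb and -0.78 to 0.18 for Grn. Among macrophage markers, Csf1r was at -0.092 with the mean of a gene's probes and ran from -0.061 to 0.17 with arrays left out, and Adgre1 from -0.31 to 0.027. The cause was not tested. Of 28 other named genes that were called, 21 lost the call under at least 1 alternative and none of them changed sign. Normexp background correction on mean signals was not run, since the files used here hold median signals, and normexp on those was chosen after seeing the data and left the counts for the 39 as they were. All probes of the 39 were above background, and the SE of their differences ran from 0.09 (Arsa) to 0.58 (Grn).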
